A study of Rattus norvegicus with 3 samples.

Results

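The cells described here carried transcripts of chondromodulin (Cnmd) and cytokine-like 1 (Cytl1) together in the early postnatal rat cochlea. They were taken from the P1 and P7 libraries among kept barcodes, that is, barcodes with more than 500 and fewer than 5000 detected genes and under 25% of UMIs (unique molecular identifiers, each standing for a captured transcript) on mitochondrial genes. A kept barcode entered the gate when Cnmd reached 10 UMIs per 10000 UMIs of the cell and Cytl1 reached 2 UMIs. The gate held 819 of the 25360 kept barcodes of both libraries, out of 30641 kept barcodes in the series: 211 of 12779 at P1 and 608 of 12581 at P7. The members were chosen by their measured Cnmd and Cytl1 counts, so every contrast given here is a description, with no test.

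The series holds cochlear duct tissue of untreated Sprague-Dawley rats at postnatal day 1, 7 and 14, dissociated with collagenase and papain, with 1 droplet-based 3' library per age. By the paper's methods, the basal membrane was dissected away from spiral ganglion, spiral ligament and stria vascularis before dissociation. The labels name the cells as greater epithelial ridge cells at all 3 ages and give no genotype, transgene or animal behind a barcode. With 1 library per age, age and library cannot be told apart, and intervals in brackets are exact 95% intervals that cover counting error only. The files hold 34927 barcodes in all, and 114285848 UMIs at P1, 101264868 at P7 and 12616390 at P14. The median kept barcode held 6565 UMIs at P1, 6878 at P7 and 1614 at P14, and the gated cells held 6047 at P1 and 9825.5 at P7. Barcode sequences shared by P1 and P7 numbered 60 in all, and none of them was gated in both libraries.

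Cnmd and Cytl1 are secreted or shed products known from cartilage. Cnmd encodes a membrane precursor whose released part inhibits the growth of blood vessels, and Cytl1 encodes a small secreted protein described in cartilage cells. Cartilage matrix is built on fibrils of collagen types II, IX and XI that hold the proteoglycan aggrecan, and the collagen genes of these fibrils are also used by connective tissue of the cochlea, such as the spiral limbus and the spiral ligament. In the mature cochlea, fibrocytes of these regions form a gap-junction network that moves potassium, and Otos and Coch are known as their products.

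Promoter sequence of 3 genes that led the gated cells is shown here, because Cytl1 set the gate and Otos and Gcg led the other genes in the ratio of gated cells to other barcodes. Each run is the 250 bases before the annotated start in RefSeq (build GRCr8), read 5′ to 3′ on the gene's strand. Cytl1 is at chr14:77283646-77283895, Gcg is at chr3:67531534-67531783 and Otos is at chr9:100665899-100666148, all on the minus strand. Capitals mark TATAAA on either strand, the core of the TATA box that places transcription starts.
Cytl1: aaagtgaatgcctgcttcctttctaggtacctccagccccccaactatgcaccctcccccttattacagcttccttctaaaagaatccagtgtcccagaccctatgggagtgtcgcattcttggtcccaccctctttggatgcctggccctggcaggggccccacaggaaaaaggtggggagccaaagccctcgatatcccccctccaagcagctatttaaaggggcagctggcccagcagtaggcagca
Gcg: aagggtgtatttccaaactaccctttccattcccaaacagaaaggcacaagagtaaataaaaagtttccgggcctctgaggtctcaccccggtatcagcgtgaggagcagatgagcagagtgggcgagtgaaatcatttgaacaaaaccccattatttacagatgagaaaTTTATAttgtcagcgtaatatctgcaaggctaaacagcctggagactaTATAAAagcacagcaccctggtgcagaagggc
Otos: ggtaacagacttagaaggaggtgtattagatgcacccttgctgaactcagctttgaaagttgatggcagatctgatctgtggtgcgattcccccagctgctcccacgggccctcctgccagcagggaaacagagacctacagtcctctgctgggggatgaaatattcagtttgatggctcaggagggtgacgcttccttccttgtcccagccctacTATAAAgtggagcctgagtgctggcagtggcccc
The motif begins 32 bases before the start in Gcg and 34 bases before it in Otos, and Gcg holds a further match on the opposite strand that begins 80 bases before the start. The Cytl1 window holds no TATAAA. Of all 33469 windows of this length in the table, 12.9% hold TATAAA on either strand. Of the 25 leading genes given further down, 18 had a window in the table, and 4 of these held it. Cnmd and Car3 had no entry.

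The gate held 1.65% of kept barcodes at P1 (1.44 to 1.89), 4.83% at P7 (4.46 to 5.22) and 0.0189% at P14 (0.000479 to 0.105), where a lone barcode passed. The share at P7 was 2.93 times that at P1 (2.50 to 3.44). Depth moved with these shares. With the kept barcodes of a library split by depth into 4 equal groups, the deepest group at P7, from 9060 UMIs up, held 375 gated cells or 11.9%, and the shallowest held 32 or 1.02%. At P1 the deepest group held 1.03% and the shallowest 1.85%. With every kept barcode thinned to 1000 UMIs, the gate held 43 of 12742 barcodes at P1 (0.337%), 141 of 12388 at P7 (1.14%) and 0 of 4546 at P14, which allows a share of up to 0.0660%. A minimum of 2 Cytl1 UMIs asks for a higher Cytl1 level in a cell of 1000 UMIs than in a deeper cell. The thinned gate was thus stricter on Cytl1, whose median in the unthinned gated cells was 6.29 per 10000 at P1 and 7.39 at P7. With Cytl1 of at least 3 per 10000 in place of 2 UMIs and no thinning, the shares were 1.57% at P1 and 4.20% at P7. The share was higher at P7 than at P1 in both of these gates, and the part of depth in the unthinned shares was not tested.

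Cells just inside and just outside the gate are described at P7 first. There, 119 cells with Cnmd between 10 and under 15 held Gcg at 1511 CPM (UMIs of the gene per 1000000 UMIs, both summed over the cells), and 154 cells with Cnmd between 5 and under 10 and the same Cytl1 minimum held it at 1091 CPM. In the same bands Otos was at 529 and 255 CPM and Col11a2 at 884 and 913 CPM. At P1, the 65 cells just inside by Cnmd held Gcg at 84.8 CPM and Otos at 745 CPM, and the 122 cells just outside held them at 64.8 and 148 CPM. By Cytl1, the 85 gated P7 cells with 2 UMIs held Gcg at 568 CPM and the 71 cells outside with 1 UMI held it at 290 CPM. Otos was higher outside at this edge, at 3708 CPM with 1 UMI against 3299 CPM with 2, and was at 1540 CPM with none. At P1, Gcg was at 359 CPM in the 54 gated cells with 2 Cytl1 UMIs and at 16.4 CPM in the 101 cells with 1, and Otos was at 569 and 394 CPM. Cells that passed on Cnmd and had no Cytl1 UMI numbered 238 at P1 and 230 at P7, and held Gcg at 22.2 and 34.0 CPM. Fbxo2, which encodes a ubiquitin ligase subunit that binds glycoproteins and was picked here after its values were seen, was at 2380 and 2311 CPM in those Cytl1-free cells, against 613 and 1299 CPM in the gated cells.

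Cnmd and Cytl1 had the levels that the gate set. The per-cell level of Cnmd, in UMIs per 10000, ran from 10.0 through a median of 19.6 to 76.4 at P1 and from 10.0 through 25.4 to 121 at P7. Summed over gated cells, Cnmd was at 2281 CPM at P1 (2202 to 2362) and 2808 CPM at P7 (2766 to 2849), against 102 and 115 CPM in the other kept barcodes. Cytl1 was at 682 CPM (639 to 727) and 964 CPM (940 to 988), against 39.7 and 59.7 CPM. The gated cells held 24.2% of the Cnmd UMIs of the kept P1 barcodes and 63.8% of those at P7.

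Gcg encodes proglucagon, the precursor of glucagon and of the gut hormones GLP-1 and GLP-2. It was at 240 CPM in gated cells at P1 (215 to 268) and 3034 CPM at P7 (2991 to 3078), against 6.34 and 65.5 CPM in the other barcodes. Its UMIs lay in 60 of 211 gated cells at P1 and in 394 of 608 at P7, and the per-cell level ran from 0 to a highest of 107 per 10000 at P1 and from 0 through a median of 3.65 to 331 at P7. The gated cells held 35.1% of the Gcg UMIs of kept barcodes at P1 and 77.0% at P7. Endothelial cells and macrophages, cell types that lack Gcg, had 0 Gcg UMIs at P1, which allows up to 2.15 and 2.67 CPM, and held it at 5.24 and 11.7 CPM at P7. The 14 neurons at P7 held 12 Gcg UMIs, or 72.7 CPM. With each cell thinned to 1000 UMIs, 14.2% of gated cells at P1 and 44.2% at P7 had a Gcg UMI, against 0.690% of the 290 endothelial cells and macrophages at P7. Before thinning, the median P7 depth was 9825.5 UMIs in gated cells, 7449.5 in endothelial cells and 6356 in macrophages.

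Most genes that release or receive the products of proglucagon were at or near 0 in the gated cells. Pcsk2, the convertase that releases glucagon in the pancreas, and the receptor genes Glp1r and Glp2r had 0 UMIs in both libraries, where a count of 0 allows up to 2.17 CPM at P1 and 0.478 CPM at P7. Pcsk1, the convertase that releases GLP-1, had 2 UMIs at P1 and 3 at P7. Cpe, a carboxypeptidase that trims released peptides, was at 343 CPM at P1 and 259 CPM at P7, against 430 and 259 CPM in the other barcodes. Dpp4, the surface peptidase that inactivates GLP-1, was at 214 CPM at P1 (190 to 239) and 236 CPM at P7 (224 to 248), against 21.1 and 24.3 CPM. Of 12 measured genes on this list, 3 passed the level filter in both libraries (a mean of gated and other barcodes of at least 10 CPM) and 2 of them, Gcg and Dpp4, were over 2-fold higher in gated cells in both.

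Gcg and Dpp4 are next to each other among the protein-coding genes of chromosome 3 in the RefSeq table (GRCr8), and Fap, which encodes a surface peptidase related to Dpp4, is on the other side of Gcg. Fap, looked at because of this position, was at 40.5 CPM in gated cells and 7.22 CPM in others at P1, and at 33.8 and 8.91 CPM at P7. Dpp4, Gcg and Fap were thus each past 2-fold in both libraries. The next genes outward, Slc4a10 beyond Dpp4 and Ifih1 beyond Fap, were also looked at for their position and lay under the level filter. Ifih1 was at 2.17 and 0.956 CPM in gated cells against 2.33 and 1.87 CPM. Slc4a10 had 0 UMIs in gated cells at P1, against 1.47 CPM in others, and was at 7.81 CPM at P7 against 0.864 CPM, which is 9.04 times higher (6.17 to 13.1) without the added 10 CPM and a log2 ratio of 0.71 with it.

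Car3 encodes carbonic anhydrase III, a cytosolic enzyme of carbon dioxide hydration. It was at 67.3 CPM in gated cells at P1 (54.4 to 82.5) and 969 CPM at P7 (945 to 994), against 7.37 and 60.8 CPM in other barcodes. Of the gated cells, 32 of 211 at P1 and 419 of 608 at P7 had a Car3 UMI. Col11a2, the alpha 2 chain of collagen XI, was at 420 CPM (386 to 456) and 1018 CPM (993 to 1043), against 74.1 and 248 CPM. Unlike Gcg and Car3 it was broad: 82.9% of gated cells at P1 and 98.2% at P7 had a Col11a2 UMI.

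**Figure D1:**
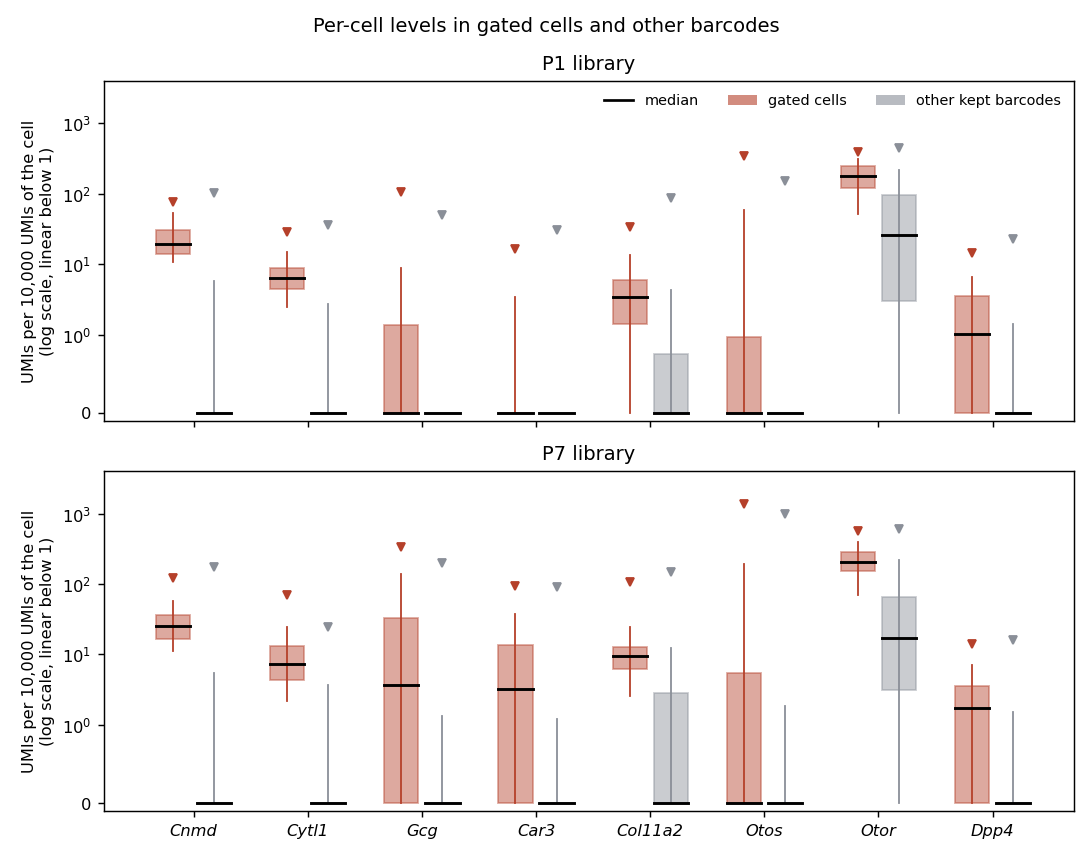
Per-cell levels of 8 genes, in UMIs per 10000 UMIs of the cell on a log scale that is linear below 1, for gated cells and other kept barcodes of the P1 and P7 libraries. Boxes span the middle 50% of cells, lines the 5th to the 95th percentile, black bars the median and triangles the highest cell; Otor and Col11a2 fill most gated cells, while Gcg, Car3 and Otos range from 0 to their highest values within the gate.

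Across genes, 74 of 6705 genes passed 2-fold higher in gated cells than in other barcodes in both libraries (1.1% of genes tested), and 192 passed 2-fold lower in both (2.86%). These ratios were taken after adding 10 CPM to each side. In the P1 library alone 115 of 7219 genes were past 2-fold higher (1.59%) and 319 lower (4.42%), and in the P7 library alone 145 of 7545 were higher (1.92%) and 369 lower (4.89%). Since the gate used the same contrast, nothing is read from these shares. The median log2 ratio over all 6705 genes was -0.05 at P1 and -0.04 at P7. The 74 genes made up 67.3% of the 110 that were past 2-fold at P1 among the genes tested in both libraries, and 56.5% of the 131 past it at P7.

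The leading genes were those whose smaller log2 ratio of both libraries was highest, among genes detected in 25% or more of the gated cells. Otos, which encodes the fibrocyte protein otospiralin, came first, with log2 ratios of 4.79 at P1 and 4.37 at P7. After Cnmd, Gcg and Cytl1 came Ppp1r1b, which encodes the phosphatase inhibitor DARPP-32, with 2.96 and 3.27, and then Dpp4 with 2.85 and 2.84. Fbxo2 had ratios of 2.32 and 3.50. The carboxypeptidase genes Cpz (2.04 and 2.30) and Cpxm2 (1.67 and 2.24) were both on the list. Igfbp2, an insulin-like growth factor binding protein, was at 4647 and 10326 CPM in gated cells against 1297 and 2128 CPM in others. Serpinf1, which encodes the vessel-inhibiting factor PEDF, was at 1489 and 2924 CPM against 415 and 553 CPM. S100b, a calcium-binding protein of glia, cartilage and fibrocytes, was at 2910 and 3175 CPM against 554 and 1034 CPM. The metallothionein gene Mt2A, the sterol transporter gene Abcg5, the aldehyde dehydrogenase gene Aldh3a1, the protease inhibitor gene Spint2, and Scrg1, Begain and Sncaip completed the list together with collagen and matrix genes given next, all with log2 ratios of at least 1.46 in both libraries.

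**Figure D2:**
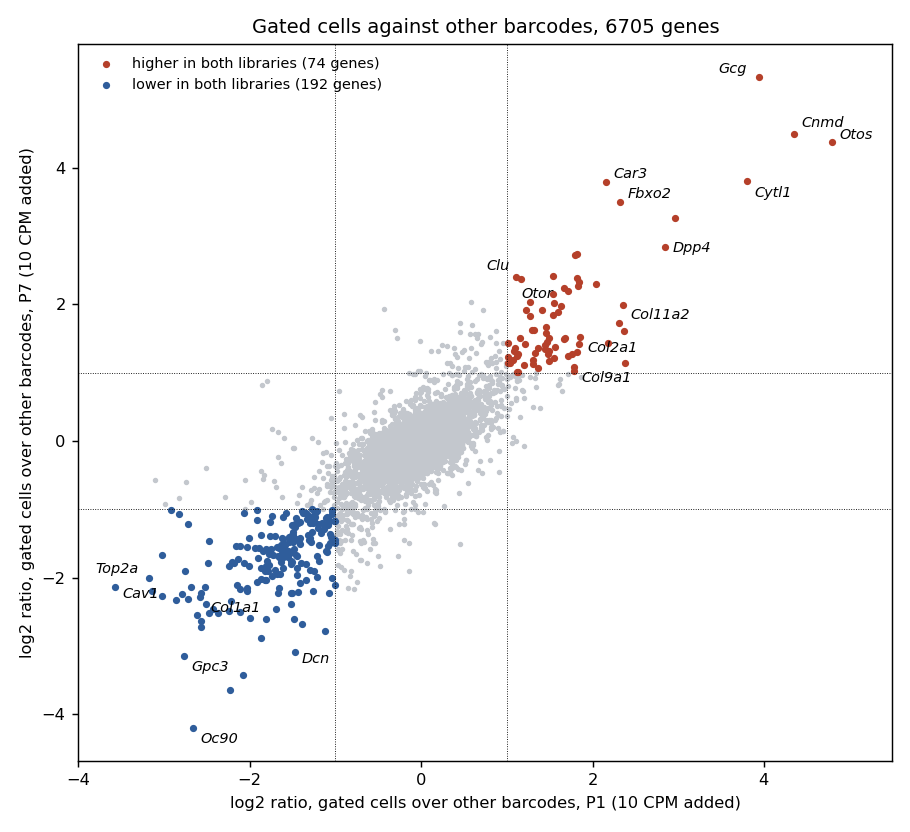
Log2 ratios of summed CPM in gated cells over other kept barcodes for 6705 genes, P1 on the horizontal and P7 on the vertical axis, with 10 CPM added; dotted lines mark 2-fold. The 74 genes past the line upward in both libraries include Otos, Gcg and Dpp4, and the 192 downward include Gpc3, Dcn and Col1a1.

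Of 8 cartilage collagen genes, 6 passed the filter and 5 were over 2-fold higher in gated cells in both libraries, with a median log2 ratio over the 6 of 1.85 at P1 and 1.43 at P7. Col2a1, the main chain of cartilage fibrils, was at 1208 CPM at P1 (1151 to 1267) and 1469 CPM at P7 (1439 to 1499), against 326 and 505 CPM in other barcodes. Col9a1, a chain of the collagen IX that coats these fibrils, was at 6124 and 6794 CPM against 1766 and 3326 CPM. Its partners Col9a2 and Col9a3 had log2 ratios of 1.84 and 2.18 at P1 and 1.42 and 1.44 at P7. Col11a1 was past 2-fold at P1 with a log2 ratio of 1.11 and had a ratio of 0.00 at P7. Col10a1, the collagen of hypertrophic cartilage, had 1 UMI in gated cells at P1 and 0 at P7.

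Matrix proteins of cartilage moved in both directions. Of 18 genes on that list, 5 passed the filter, 3 were past 2-fold higher and Epyc was past it lower. The log2 ratios of Epyc were -1.10 at P1 and -1.63 at P7, and became -0.23 and -0.81 against other barcodes free of Cnmd and Cytl1 (Cnmd under 5 per 10000 and no Cytl1 UMI). Otor, which encodes a secreted protein of cochlear and cartilage cells, was at 18440 CPM in gated cells at P1 and 22034 CPM at P7, against 5924 and 5564 CPM in others. Endothelial cells and macrophages, which should lack it, held Otor at 568 to 1983 CPM, and gated cells stood 32.5 times above endothelial cells at P1 and 16.6 times at P7, and 22.6 and 11.1 times above macrophages. Matn4, a matrilin that links matrix fibrils, was at 1707 and 1728 CPM against 336 and 516 CPM, and Fmod, fibromodulin, was at 73.1 and 44.3 CPM against 16.0 and 8.997 CPM.

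Several other defining genes of hyaline cartilage were at or near 0. Acan, the aggrecan core protein, had 0 UMIs in gated cells at P1 and 2.71 CPM at P7. Comp, the cartilage oligomeric matrix protein, had 0 UMIs in both libraries. Matn1 and Matn3 were under 1 CPM in both, Hapln1, the link protein of aggrecan, was at 6.52 and 7.17 CPM, and Prg4, lubricin of joint surfaces, was at 0 and 0.637 CPM. Without the added 10 CPM, the ratio to other barcodes was 0.87 for Acan at P7 (0.50 to 1.43). For Hapln1 it was 0.92 at P1 (0.42 to 1.76) and 1.36 at P7 (0.98 to 1.85). Further matrix genes under the filter were higher in gated cells: Vit (19.99 and 44.95 times), Snorc (3.04 and 2.98) and Chadl (2.86 and 3.85). Matn2 was lower in both libraries, at 0.19 times at P1 (0.062 to 0.44) and 0.16 times at P7 (0.089 to 0.25). Cilp was lower at P7, at 0.063 times (0.0016 to 0.35). Of the 12 chondrocyte transcription factors, 5 passed the filter and none was past 2-fold in both. Sox9, the factor that switches on cartilage collagens, was at 151 CPM at P1 (131 to 173) and 378 CPM at P7 (363 to 393), against 71.1 and 166 CPM. Without the added 10 CPM it was 2.13 times higher at P1 (1.85 to 2.44) and 2.27 times at P7 (2.18 to 2.38), and with it the log2 ratios were 0.99 and 1.14. Against ungated cells that carry Crym and Isyna1, described further on, Sox9 was past 2-fold higher in both libraries, with log2 ratios of 1.02 and 1.03. Against ungated cells that carry Gpc3 with Lepr or Ramp3, also described further on, 5 chondrocyte factors passed the filter, Sox9 among them. None of these was past 2-fold in both libraries. The Sox9 partners Sox5 and Sox6 were at 34.8 and 4.34 CPM at P1 and 15.6 and 5.42 CPM at P7. The cells thus held most fibril collagens, Otor, Matn4, Fmod and Sox9 above the pool of other barcodes. Aggrecan and its partners were at or near 0, and the intervals for Acan at P7 and for Hapln1 against that pool included 1. Against the Crym and Isyna1 cells alone, 2 of 6 cartilage collagens that passed the filter (Col2a1 and Col9a1) were past 2-fold higher in both libraries. Of 5 matrix proteins that passed it, 1 (Matn4) was. The other fibril collagens, Otor and Fmod fell short of that in at least 1 library. The gated cells are called here by their gate genes.

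**Figure D3:**
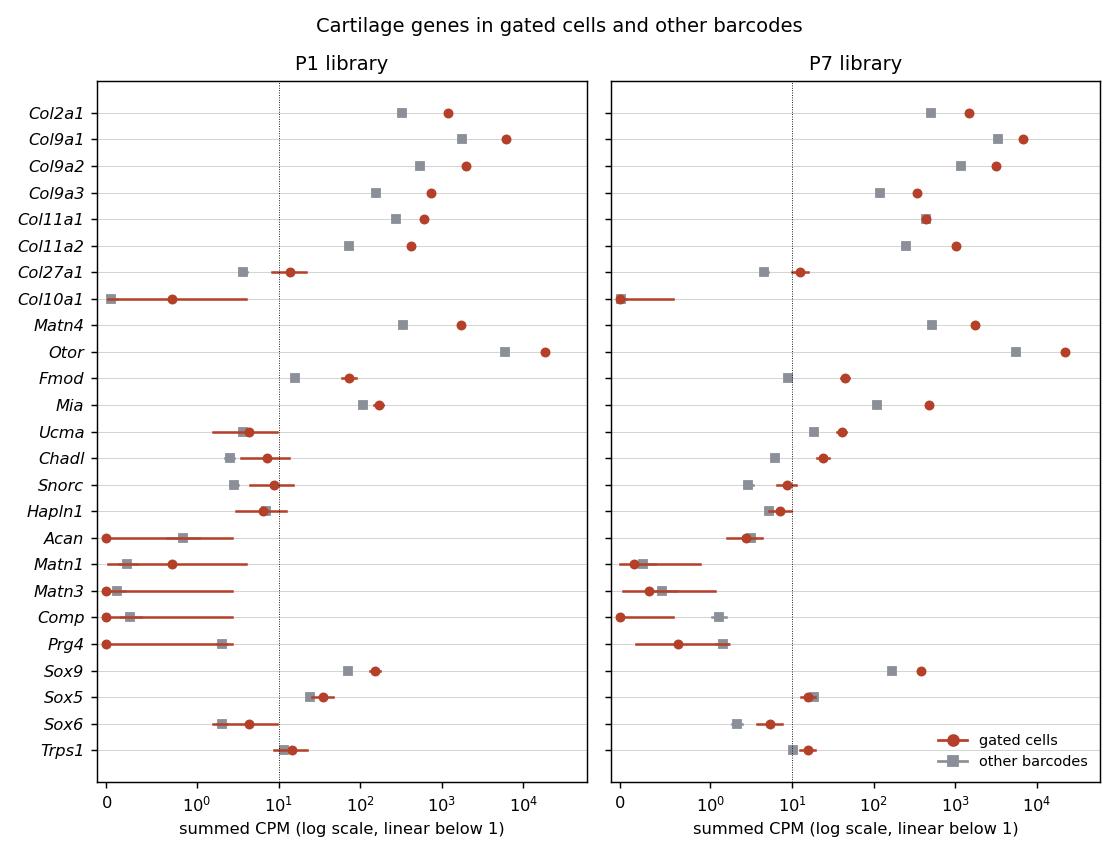
Summed CPM of 25 cartilage genes in gated cells and other kept barcodes at P1 and P7, on a log scale that is linear below 1, with exact 95% Poisson intervals as horizontal lines and the 10 CPM level dotted. Col2a1, Col9a1, Col9a2, Col9a3, Col11a2, Matn4 and Otor lie right of the other barcodes, and Acan, Comp, Matn1, Matn3 and Prg4 lie at or near 0 in both.

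Of 12 hypertrophy and bone genes, 3 passed the filter and Spp1, osteopontin, alone was past 2-fold in both libraries, at 91.2 and 25.3 CPM in gated cells against 535 and 183 CPM. Of 8 tendon genes, 2 passed the filter and none was past 2-fold in both. Scx, a tendon transcription factor, was at 52.1 and 217 CPM against 28.1 and 73.3 CPM, and Tnmd, the tendon relative of Cnmd, was at 7.24 and 19.3 CPM against 3.85 and 1.09 CPM.

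Of 15 genes of cochlear fibrocytes, 14 passed the filter, 4 were over 2-fold higher in both libraries (Otos, Car3, Ptgds and S100b) and Kcnk2, a potassium channel gene, was over 2-fold lower. Otos was at 880 CPM in gated cells at P1 (832 to 931) and 2800 CPM at P7 (2759 to 2842), against 22.1 and 126 CPM in others. It was spread unevenly over the cells: 55 of 211 gated cells at P1 and 299 of 608 at P7 had an Otos UMI, and the tenth of gated cells with most Otos held 95.5% and 86.0% of its UMIs. Coch, cochlin, was at 247 and 107 CPM against 74.99 and 56.6 CPM, and the gap-junction genes Gjb2 and Gjb6 had log2 ratios of 1.61 and 1.32 at P1 and 0.84 and 0.92 at P7. Crym, a thyroid hormone binding protein, was at 4380 and 5575 CPM against 2692 and 2082 CPM.

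Other matrix and growth factor lists had genes past 2-fold in both directions. Of 6 vessel-inhibiting secreted proteins that passed the filter, Cnmd, which set the gate, and Serpinf1 were past 2-fold higher. Col18a1, which carries endostatin, was past it lower. Against the Crym and Isyna1 cells, Cnmd and Thbs2 were past 2-fold higher in both libraries and Serpinf1 was not. Against the cells with Gpc3 and Lepr or Ramp3, Cnmd and Serpinf1 were. Of 9 insulin-like growth factor genes that passed the filter against other barcodes, Igfbp2 was past 2-fold higher and Igfbp6 and Igfbp7 lower. In the CCN family, 2 of 4 genes were past 2-fold higher. Ccn2, a matricellular protein that cartilage uses, was at 472 and 223 CPM against 165 and 75.6 CPM, and Ccn4 was at 43.5 and 162 CPM against 15 and 57.0 CPM. Among the 12 interstitial collagens that passed the filter, Col12a1 and Col14a1, which sit on the surface of collagen fibrils, were past 2-fold higher, and 5, among them Col1a1 and Col5a1, were lower. Of 19 measured otic mesenchyme transcription factors, 9 passed the filter and none was past 2-fold in both, with Pou3f4, a factor required in the mesenchyme around the cochlea, at 684 and 575 CPM against 419 and 285 CPM. None of the 22 BMP and TGF genes was past 2-fold in both libraries, of 8 that passed the filter. Sfrp1, a secreted Wnt inhibitor, alone was lower of 11 Wnt genes that passed. Ptch1, the hedgehog receptor, was past 2-fold lower of 3 FGF and hedgehog genes, but only just at P1, where its log2 ratio was -1.01 and fell short of 2-fold under 6 of 15 alternatives. Of 7 small leucine-rich proteoglycans that passed, Fmod was higher and Dcn, Lum and Epyc were lower. Lox alone was lower of 20 collagen maturation enzymes that passed. No gene of the vascular growth factor list or of the matrix protease list was past 2-fold in both.

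The genes lowest in gated cells included several known from fibroblasts, epithelium and dividing cells. Gpc3, a glypican, was at 22.4 and 47.5 CPM against 211 and 500 CPM, and the fibroblast genes Lum, Col1a1 and Dpt had log2 ratios between -2.73 and -2.37. Oc90, a protein of ear crystals made by epithelium, was at 15.2 and 11.8 CPM against 149 and 391 CPM. Its direction at P1 rested on the choice of cells: the log2 ratio was -2.66, and became 2.63 with a gate of 1 Cytl1 UMI and 0.18 against other barcodes free of Cnmd and Cytl1. At P7 the log2 ratio of -4.20 became -0.52 against the latter, short of 2-fold. Fn1, Rgs5, Spp1, Gap43 and the division gene Ube2c completed the lowest 10. All 8 division genes that passed the filter were lower, and their list of 10 summed to 19.6 CPM in gated cells at P1 and 99.1 CPM at P7, against 518 and 688 CPM.

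Markers of other cell types are given as the summed level of each list. The 8 epithelial markers, which the labelled cell type should carry, summed to 32.6 and 59.3 CPM in gated cells against 132 and 192 CPM in others. Sox2 and Epcam were past 2-fold lower in both libraries, and the log2 ratio of Epcam at P1 went from -1.27 to 0.29 with a gate of 1 Cytl1 UMI. Against other barcodes free of Cnmd and Cytl1, Epcam was short of 2-fold at both ages, at -0.51 and -0.55. Of 8 hair cell genes, 7 had 0 UMIs in both libraries, and the other, Myo6, was at 220 and 133 CPM against 124 and 86.1 CPM. Fibroblast markers summed to 776 and 589 CPM against 1285 and 2575 CPM. Endothelial markers summed to 15.2 and 43.3 CPM against 144 and 184 CPM, glial markers to 508 and 868 CPM against 1466 and 6312 CPM, mural markers to 63.7 and 74.1 CPM against 213 and 302 CPM, neuronal markers to 135 and 26.4 CPM against 990 and 156 CPM, and macrophage markers to 11.6 and 107 CPM against 387 and 284 CPM. Doublet calls covered 2.84% of gated cells at P1 and 9.05% at P7, against 4.90% and 6.01% of the other barcodes.

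Ungated cells with at least 2 UMIs of Crym and of Isyna1 numbered 1683 at P1 and 592 at P7. Against them, 71 of 6576 genes were past 2-fold higher in gated cells in both libraries (1.08%) and 98 past it lower (1.49%). The 10 largest ratios belonged to Gcg, Cnmd, Otos, Cytl1, Fbxo2, Car3, Dpp4, Col12a1, Col14a1 and Scrg1. Gcg was at 6.95 and 78.5 CPM in the Crym and Isyna1 cells, Otos at 97.6 and 119 CPM, and Dpp4 at 42.2 and 43.8 CPM. Col11a2, in contrast, had log2 ratios of 1.29 at P1 and 0.73 at P7, and Otor of 0.49 and 0.53.

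On the list of Wnt genes, 10 passed the filter in this contrast. Wif1, Axin2, Sp5 and Lef1 were past 2-fold lower in gated cells than in the Crym and Isyna1 cells, and Frzb, a secreted Wnt inhibitor, was past it higher. The Wnt inhibitors Notum, Nkd1 and Nkd2, which were named by their rank among all genes, were at 5.07, 8.69 and 14.5 CPM in gated cells at P1, against 90.4, 120 and 144 CPM. At P7 they were at 9.72, 8.92 and 6.69 CPM, against 432, 156 and 145 CPM. The caveolar genes Cav1 and Cavin2, Fn1, and Aldh1a2, which encodes a retinoic acid synthesis enzyme, were also among the 10 lowest, with Cav1 at 5.07 and 9.72 CPM against 353 and 238 CPM.

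Cells with at least 2 UMIs of Gpc3 and a UMI of Lepr or Ramp3 were the next group compared, 1803 at P1 and 3352 at P7. Of 6574 genes, 99 were past 2-fold higher in gated cells in both libraries (1.51%) and 200 past it lower (3.04%). Otos, Cnmd, Fbxo2, Cytl1 and Ppp1r1b led upward, and Lum, Dcn, Tac1 and Edn3 led downward after Gpc3, which chose the compared cells. Of 6 cartilage collagens that passed the filter in this contrast, 4 were past 2-fold higher (Col2a1, Col9a2, Col9a3 and Col11a2). Of 5 cartilage matrix proteins, 4 were (Matn4, Fmod, Mia and Otor). At P1 alone, where 134 cells carried Col1a1, Dcn and Lum, 285 of 7168 genes were past 2-fold higher in gated cells (3.98%) and 506 lower (7.06%).

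From P1 to P7, 310 of 7150 genes were past 2-fold higher in gated cells (4.34%) and 175 past it lower (2.45%). In the other barcodes 261 of 7650 genes were past it higher (3.41%) and 155 lower (2.03%), and 133 of the genes were in both upward sets, 42.9% of the gated set and 51.0% of the other. The median log2 ratio over the 7150 genes was 0.10 in gated cells and 0.09 in other barcodes. Gcg was 12.6 times higher at P7 in gated cells (11.3 to 14.1) and 10.3 times in other barcodes (9.49 to 11.2), and it went from 6.95 to 78.5 CPM in the Crym and Isyna1 cells. With 10 CPM added, the log2 ratios were 3.60, 2.21 and 2.39 in these groups. Car3 was 14.4 times higher in gated cells (11.7 to 17.9) and 8.25 times in other barcodes (7.62 to 8.93). Neither difference between gated cells and other barcodes could be tested with 1 library per age.

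Further genes higher at P7 included secreted and signalling products. Rbp4, the retinol carrier, was at 13.0 CPM in gated cells at P1 and 138 CPM at P7, against 5.88 and 24.1 CPM in others. Clu, clusterin, a secreted chaperone, was at 393 and 1611 CPM against 178 and 298 CPM. Tgif1, a transcriptional repressor, was at 41.3 and 269 CPM against 27.5 and 82.1 CPM, and the homeobox gene Msx3 at 12.3 and 111 CPM against 0.818 and 9.08 CPM. P3h3, a collagen hydroxylase gene, and Cd9, a tetraspanin, had log2 ratios of 2.36 and 2.23 in gated cells and of 2.15 and 2.39 in other barcodes. Mia, a secreted relative of Otor, was at 168 and 482 CPM in gated cells and at 108 and 111 CPM in others. Igfbp2 and Otos were also past 2-fold higher, at 2.22 and 3.18 times in gated cells and 1.64 and 5.67 times in others. Fbxo2 was 2.12 times higher in gated cells (1.97 to 2.28) and 0.921 times in others. Its log2 ratio in gated cells was 1.07 and fell short of 2-fold under 4 of 15 alternatives. Ptgds, prostaglandin D synthase, was at 134 and 506 CPM and rested on few cells, since the tenth of cells with most of it held 97.8% and 96.7% of its UMIs.

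Haemoglobin transcripts stood at the head of the same list. The Hba-a2 and Hbb genes and the loci LOC689064 and LOC103694857 summed to 261 CPM in gated cells at P1 and 3282 CPM at P7, against 1692 and 4680 CPM in other barcodes and 20601 and 10032 CPM in endothelial cells. The complement genes C1qa, C1qb and C1qc summed to 4.34 and 50.03 CPM in gated cells against 229 and 130 CPM in others, and 5 of 606 gated cells at P7 held 2 or more macrophage UMIs after thinning, against 0 of 211 at P1, which allows up to 1.42%. These levels moved with age in the gated cells, and their part in other differences was not tested. Rpa3 and AABR07071891 were also among the 15 highest.

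Genes lower at P7 were led by Egr1, an immediate early transcription factor, at 634 CPM in gated cells at P1 and 66.3 CPM at P7, against 561 and 119 CPM in others. Of 13 genes of the dissociation response list that passed the filter, 7 were past 2-fold lower at P7, namely Fos, Fosb, Jun, Junb, Egr1, Ier2 and Btg2. Their list summed to 6317 and 2393 CPM in gated cells and to 4890 and 2649 CPM in other barcodes, so it moved with age in both, and the part of dissociation in these values was not tested. Mgp, matrix Gla protein, an inhibitor of calcification, was at 1321 and 397 CPM in gated cells against 901 and 615 CPM. Isyna1, which makes inositol phosphate, was at 343 and 88.0 CPM against 263 and 79.2 CPM. Ank2, Dusp1, Ogfrl1, Nktr, Hist1h1e, AABR07068127 and AC134224 made up the rest of the 15 lowest.

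Matrix genes did not move together. Of 7 cartilage collagens that passed the filter at this contrast, Col11a2 was past 2-fold higher at P7 and Col9a3 past it lower, with Col2a1 at a log2 ratio of 0.28. Without the added 10 CPM, the folds in gated cells and in other barcodes were 2.42 and 3.35 for Col11a2. They were 0.466 and 0.775 for Col9a3, and 1.22 and 1.55 for Col2a1. Col9a3 fell short of 2-fold under 2 of 15 alternatives. Among fibrocyte genes, Otos, Car3, Car2 and Ptgds were past 2-fold higher, and Coch and Isyna1 were past it lower. On the same scale, the folds in gated cells and in other barcodes were 3.18 and 5.67 for Otos. They were 6.39 and 3.24 for Car2, and 3.78 and 2.15 for Ptgds. Coch had folds of 0.435 and 0.754, and Isyna1 of 0.256 and 0.301. Coch fell short of 2-fold under 2 alternatives. Sox9 and Scx were past 2-fold higher in gated cells, with log2 ratios of 1.27 and 1.87, and of 1.12 and 1.13 in other barcodes. Sfrp2, Sfrp4 and Wnt5a were past 2-fold higher of 10 Wnt genes that passed the filter. Without the added 10 CPM, their folds were 2.61, 5.88 and 2.59 in gated cells and 1.14, 6.52 and 2.56 in other barcodes. Wnt5a fell short of 2-fold under 3 of 15 alternatives and Sfrp2 under 1.

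**Figure D4:**
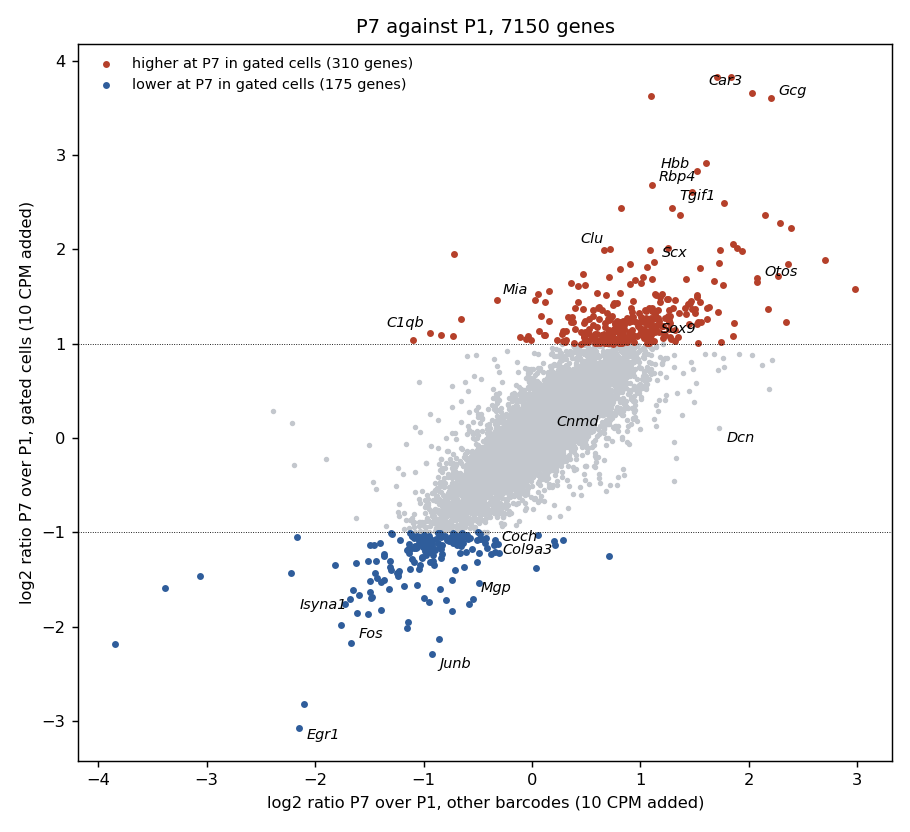
Log2 ratios of P7 over P1 for 7150 genes, in other kept barcodes on the horizontal and in gated cells on the vertical axis, with 10 CPM added and dotted lines at 2-fold. Gcg and Car3 lie high on both axes, and Clu and Mia lie above 2-fold in gated cells with ratios under 1 in other barcodes.

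Within the gate the cells differed in Gcg, Car3 and Otos. With each cell thinned to 1000 UMIs, 71.1% of 211 cells at P1 (64.5 to 77.1) and 20.6% of 606 cells at P7 (17.5 to 24.1) had a UMI of none of these genes. At P7, 118 cells had Gcg alone, 133 had Car3 alone, 65 had Otos alone and 74 had Gcg with Car3. Car3 was seen in 21.2% of the 156 cells with Otos (15.03 to 28.4) and in 46.0% of the 450 without it (41.3 to 50.7). Otos was seen in 28.4% of cells with Gcg (23.0 to 34.2) and in 23.7% of those without (19.2 to 28.6). Car3 was seen in 34.3% of cells with Gcg at P7 and in 43.8% of those without, and at P1 in 10.0% and 2.76%. Dpp4 was seen in 24.6% of cells with Gcg at P7 and in 17.5% of those without, and at P1 in 36.7% and 14.9%. Coch was seen in 21.8% of cells with Otos at P7 (15.6 to 29.1) and in 7.33% of those without (5.10 to 10.1), and at P1 in 46.4% and 12.6%. The cells of a library share 1 preparation, and these shares are a description of it.

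**Figure D5:**
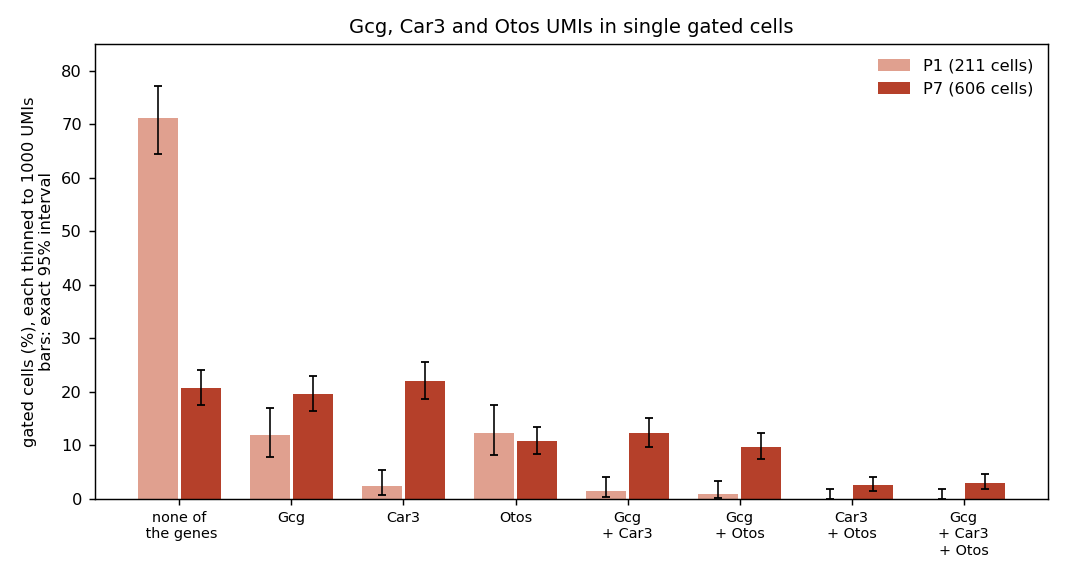
Share of gated cells with at least 1 UMI of Gcg, Car3 or Otos, alone or together, after thinning each cell to 1000 UMIs, for 211 cells at P1 and 606 at P7. Bars start at 0 and lines are exact 95% binomial intervals; the share with none of these genes is 71.1% at P1 and 20.6% at P7.

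The members were also looked for among their nearest cells. With Cnmd and Cytl1 left out, which left 1998 variable genes, the 30 nearest cells of a gated P7 cell were gated in 59.4% of cases on average, and those of a gated P1 cell in 22.7%. Of all kept barcodes of both libraries 3.23% were gated, with 4.83% at P7 and 1.65% at P1. With Gcg, Car3 and Col11a2 left out too, the neighbour shares were 57.9% at P7 and 21.6% at P1. At P1, 25 of 211 gated cells had no gated neighbour, and at P7, 17 of 608 had none. Nearest cells came from the same library in 86.4% of cases for P1 and 97.4% for P7.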

How the data were processed

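The authors demultiplexed 10x 3' version 3 libraries with bcl2fastq, counted them with Cell Ranger on rn6, and deposited raw UMI counts per gene and barcode, with no normalization; the submitters' processing notes also name Seurat 3.1.1. The members and gene lists were chosen with earlier results of these data known. Counts were summed over the cells of a group, scaled to CPM and compared as log2 ratios after adding 10 CPM, among genes with a mean of both sides of at least 10 CPM. Past 2-fold means a log2 ratio beyond 1 or below -1. Intervals are exact (Poisson, Clopper-Pearson). Named genes were the list members, the 25 highest and 10 lowest against other barcodes, the 15 at each end between ages at 50 CPM or more, and the 10 at each end against compared groups. Thinning drew UMIs without replacement. Doublets were called with Scrublet (scanpy 1.11.5) and kept; at P14 it marked 2 of 5281 barcodes and so did not work there. Genes sharing a symbol were kept apart by identifier. The computations used Python 3.11.15 and were tested on simulated data.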

Additional observations from a re-analysis of the deposited data

How the results depend on the processing

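No paired analysis was possible because each age has 1 library, and leaving out a replicate was not possible for the same reason. The log2 ratio of the gated share, P7 over P1, was 1.55. It was 1.22 with Cnmd of at least 5 per 10000, 2.00 with at least 20, and 1.14 with at least 1 Cytl1 UMI, and it ran from 1.42 to 1.78 under the other gate alternatives. The counts of genes higher and lower in gated cells (74 and 192) became 29 and 51 with 50 CPM added and 42 and 61 with a mean of at least 50 CPM, and the count of higher genes became 120 with 1 CPM added. The counts higher and lower at P7 (310 and 175) became 654 and 410 with 1 CPM added, 56 and 31 with 50 CPM added, and 128 and 85 with a mean of at least 50 CPM. The count lower at P7 became 332 with cells thinned to 3000 UMIs and 281 with totals free of mitochondrial, ribosomal protein and haemoglobin genes, where 348 were higher. Those totals still held the haemoglobin loci LOC689064 and LOC103694857. Of 217 named log2 ratios past 1, 148 stayed past it under all 15 alternatives run and 187 under all but 50 CPM added. Those of Oc90 and Epcam at P1 became 2.63 and 0.29 with at least 1 Cytl1 UMI, and Oc90 became 0.18 against other barcodes free of Cnmd and Cytl1, a reference chosen after seeing the data, as was the thinning to 1000 UMIs, where the share ratio was 1.75. Counts near 0 at P1 rest on 1381017 UMIs in gated cells, so genes under a few CPM were not measurable there.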
